A study of Mus musculus with 12 samples.

Results

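The tumor necrosis factor (TNF) ligands and their receptors were followed in whole mouse colon. Genes were taken by symbol from the colon count tables: every symbol of the Tnfsf and Tnfrsf numbering, with Tnf, Lta, Ltb, Ltbr, Fas, Fasl, Cd27, Cd70, Cd40, Cd40lg, Eda, Edar, Eda2r and Ngfr. Of 30263 genes in the tables, 46 carried such a symbol, and the 41 with a mean of 10 or more read counts over the 6 colon libraries are the genes described here. They are 13 ligands, 27 receptors and 1 RNA from the strand opposite Tnfsf13, and all 41 passed the low-count filter of the test. The count threshold itself does not use genotype.

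The study used C57BL/6 mice of 2 genotypes, wild type (WT) and S1PR4 KO by label (KO). S1PR4 is a sphingosine 1-phosphate receptor carried mainly by immune cells, and how the KO allele was made is not given in the sources used here. Both colon groups, with 3 libraries each, had received azoxymethane (AOM, 10 mg/kg), a carcinogen, and repeated periods of dextran sulfate sodium (DSS, 0.5%) in the drinking water, which injures the colon lining, and whole colons were taken at day 84. No colon was without AOM and DSS, so the values show no effect of the treatment. The other 2 groups, 3 libraries each, were CD8+ T cells sorted from tumors of untreated PyMT mice, a mammary cancer model driven by a viral oncogene, once 1 tumor measured 1.5 cm. The CD8 tables used here list 357 genes and 0 of the 41, so those cells are not analysed here. The labels do not say whether replicates were separate animals, so the p-values cover the variation among these libraries and no more.

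TNF ligands are mostly membrane proteins that act as trimers, and many can also be shed. Their receptors share cysteine-rich repeats outside the cell. Receptors with a death domain, such as Tnfrsf1a and Fas, can start cell death, and many others bind TRAF adaptors and activate NF-kB, a transcription factor family. In the gut, TNF is a driver of inflammation, lymphotoxin organises lymphoid tissue, BAFF keeps B cells alive, and RANKL directs the making of the antigen-sampling M cells.

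Expression is given as CPM, a gene's counts on a common library size after TMM scaling, for replicates 1, 2 and 3 in that order. Total counts ran from 7304082 to 8652561. S1pr4 itself went against the labels, which give 61, 47 and 25 raw counts to WT and 154, 162 and 118 to KO. The WT mean was 5.54 ± 2.14 CPM (SD, n = 3) against a KO mean of 19.1 ± 2.73 CPM (SD, n = 3), so WT and KO name libraries by their labels throughout, and every direction rests on them. Xist, made from the inactive X chromosome, stood at 545, 591 and 515 CPM in WT replicate 1, KO replicate 2 and KO replicate 3, and at 0.894 to 6.75 CPM in the other libraries. Those other libraries, WT replicates 2 and 3 and KO replicate 1, held 265 to 304 CPM of Y-linked genes. Each genotype thus mixes both kinds, with 1 Xist library in WT and 1 Y library in KO. All 8 colon epithelium markers were detected, with summed levels of 1460 to 1790 CPM, and WT replicate 1 stood apart by 547 CPM of squamous epithelium and skin markers, against 16.4 to 53.6 CPM in the others.

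No TNF family gene passed the test between KO and WT. Of the 41, edgeR's quasi-likelihood test called 0 after Benjamini-Hochberg adjustment over all 17195 genes (smallest adjusted p = 0.829), and 0 had an unadjusted p under 0.05. Over all genes, 0% were called by the adjusted p and 5.06% had an unadjusted p under 0.05 (2.62% with a higher KO mean, 2.44% with a lower one). DESeq2 also called 0 of the 41 (smallest adjusted p = 0.976), where it called 0.0637% of all the genes it tested. S1pr4, with every KO library above every WT library, differed by 1.78 ± 0.34 on the log2 scale (SE). EdgeR did not call it (adjusted p = 0.829), while DESeq2 did (adjusted p = 0.00442). A gene that edgeR did not call is thus not shown to be unchanged. The limma-voom fit with library quality weights called 0 (smallest adjusted p = 0.092), with 16 of the 41 at an unadjusted p under 0.05 (39%), where 26.5% of all genes were. The mean was higher in KO for 25 of the 41 (61%) and lower for 16, and over all tested genes 49% were higher. The median log2 difference was 0.14 for the 41 and -0.005 for all tested genes. Without WT replicate 1 the median was 0.33, and without WT replicate 3 it was 0.01.

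Groups did not overlap for 3 of the 41 (7.32%), which is below the 9.58% of all tested genes (4.55% with KO above and 5.04% with KO below). These were Tnfrsf22, with every KO library above every WT library, and Tnfrsf21 and Fas, with every KO library below. Without WT replicate 1 the count was 8 (19.5%), where 23.5% of all genes did not overlap. The TNF family genes also varied more between libraries than most genes: the highest library stood a median of 2.84 times above the lowest, against 1.46 times over all tested genes. The family includes many genes of low count, and this ratio was not adjusted for level. Ligands had a median ratio of 3.49 and receptors of 2.25.

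**Figure D1:**
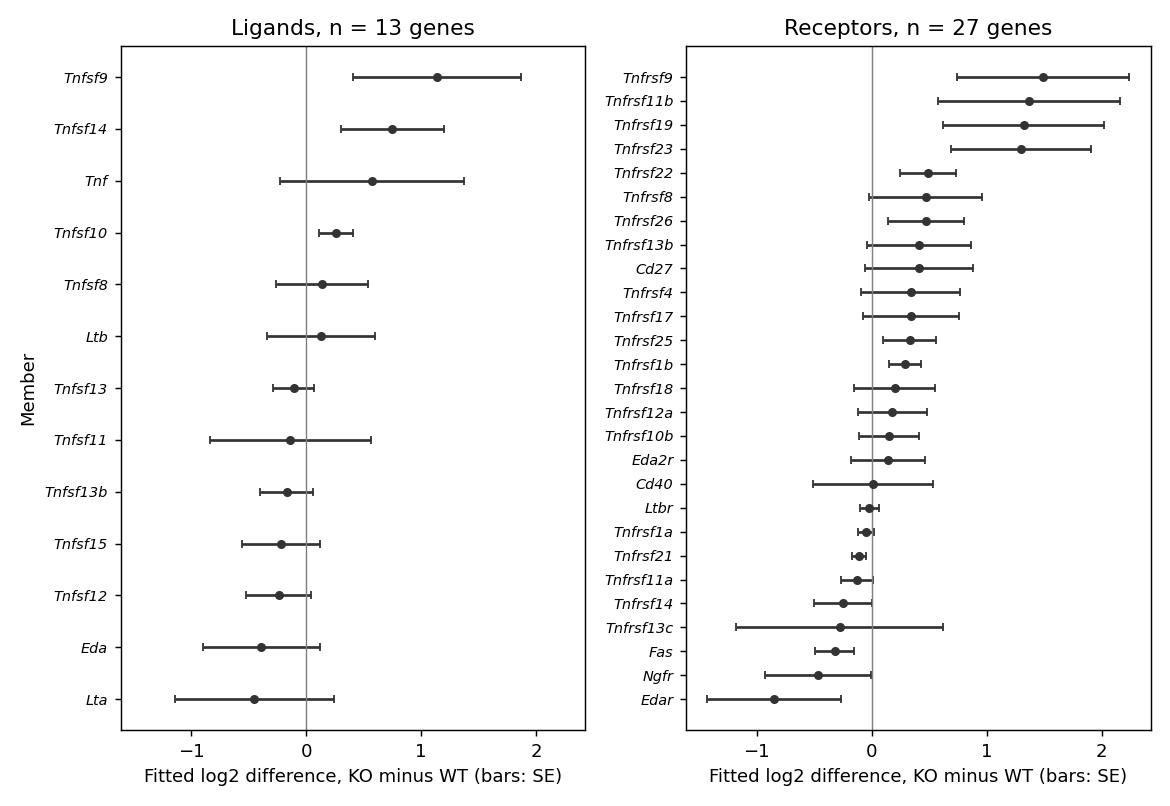
Fitted log2 difference of KO to WT with points for the estimate and bars for 1 standard error, in separate panels for ligands and receptors. Differences run from -0.85 for Edar to 1.49 for Tnfrsf9, and no gene passed the test at an adjusted p of 0.05.

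Several ligands lie close together in the genome. Lta, Tnf and Ltb, which encode lymphotoxin alpha, TNF and lymphotoxin beta, are neighbours on chromosome 17 (GRCm38, Lta 35203165 to 35205351 and Tnf 35199381 to 35202007 on the minus strand, Ltb 35194439 to 35196320 on the plus strand). NF-kB proteins bind kappaB sites, and the RefSeq promoter windows, from 250 bases before to 50 after each start, were searched on both strands for the kappaB consensus. Of the 41 genes, 33 had a window, and 4 of the 33 (12.1%) held a match (Ltb, Tnfrsf25, Tnfrsf8 and Tnfrsf9), against 9.55% of all 27025 genes with windows. A match is a string of letters and not a shown binding site. Bases outside the windows and looser forms of the motif were not searched, so a gene without a match may still have kappaB sites. The parts of 3 windows that lie before the start and outside annotated exons are printed to show a match in Ltb and in Tnfrsf8 and its absence from this stretch of Tnf, the match in capitals, on the opposite strand in Ltb and as overlapping matches on both strands in Tnfrsf8 (GRCm38.p6, chr17:35194257-35194438 plus strand for Ltb, chr4:145315165-145315414 minus strand for Tnfrsf8, chr17:35202008-35202257 minus strand for Tnf).
Ltb: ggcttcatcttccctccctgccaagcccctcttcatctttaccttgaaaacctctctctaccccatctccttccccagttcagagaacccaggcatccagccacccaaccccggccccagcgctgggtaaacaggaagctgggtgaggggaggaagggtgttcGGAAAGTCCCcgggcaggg
Tnfrsf8: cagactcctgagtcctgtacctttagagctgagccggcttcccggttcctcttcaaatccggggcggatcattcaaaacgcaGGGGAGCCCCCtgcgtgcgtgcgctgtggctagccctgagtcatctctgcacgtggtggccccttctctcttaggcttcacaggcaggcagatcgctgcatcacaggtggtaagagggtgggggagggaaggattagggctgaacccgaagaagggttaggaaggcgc
Tnf: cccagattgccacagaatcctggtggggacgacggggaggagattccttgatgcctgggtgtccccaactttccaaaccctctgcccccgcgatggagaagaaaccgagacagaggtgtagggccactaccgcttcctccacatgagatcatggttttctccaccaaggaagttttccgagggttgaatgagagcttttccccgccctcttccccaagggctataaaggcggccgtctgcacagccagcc

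Among the 13 ligands the mean was higher in KO for 6 and lower for 7, with a median log2 difference of -0.11 and a range from -0.45 to 1.14. Tnf (ENSMUSG00000024401), the founding inflammatory ligand, stood at 10.8, 19.1 and 3.88 CPM in WT and at 3.83, 24.2 and 22.2 CPM in KO. WT replicate 3 and KO replicate 1 were nearly equal and low, and the groups overlapped. The means were 11.3 ± 7.64 CPM (SD, n = 3) and 16.7 ± 11.2 CPM (SD, n = 3), a log2 difference of 0.57 ± 0.80 (SE; edgeR adjusted p = 0.896).

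Tnfsf9 (4-1BB ligand, a T cell co-stimulator) measured 5.68, 3.61 and 3.75 CPM in WT and 1.66, 12.3 and 15.0 CPM in KO. KO replicate 1 was the lowest of the 6 and the other KO libraries were the highest, which gave 1.14 ± 0.73 on the log2 scale (SE; edgeR adjusted p = 0.829). Its receptor Tnfrsf9 (4-1BB) had the largest difference of the 41, with 4.26, 2.94 and 1.00 CPM in WT and 2.43, 13.8 and 6.94 CPM in KO. That was 1.49 ± 0.75 (SE; edgeR adjusted p = 0.829), from means of 2.73 ± 1.64 CPM (SD, n = 3) and 7.71 ± 5.70 CPM (SD, n = 3). For Tnfrsf9 KO replicate 1 lay among the WT libraries, and raw counts went down to 8.

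Tnfsf10 (TRAIL, which can trigger cell death) was the ligand with the highest CPM, at 45.1, 53.2 and 48.1 in WT and 68.3, 48.4 and 58.8 in KO. The KO group reached higher but its lowest library lay within the WT range (0.26 ± 0.15 on the log2 scale, SE; edgeR adjusted p = 0.829). Tnfsf14 (LIGHT), a partner of Ltbr and Tnfrsf14, sat near the count threshold at 1.66, 1.20 and 0.500 CPM in WT and 1.53, 2.12 and 2.04 CPM in KO. KO replicates 2 and 3 were the highest and KO replicate 1 lay inside the WT range (0.75 ± 0.45, SE; edgeR adjusted p = 0.829), from raw counts of 4 to 16.

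Ltb, which builds the membrane lymphotoxin with Lta, had 25.6, 25.4 and 7.75 CPM in WT and 27.1, 22 and 15.4 CPM in KO. Lta stood at 3.79, 2.54 and 1.00 CPM in WT and 3.06, 1.72 and 0.545 CPM in KO. For both genes replicate 3 was the lowest library of its group, and the groups overlapped across most of their range (log2 differences of 0.13 ± 0.47 and -0.45 ± 0.69, SE).

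Tnfsf13b (BAFF, a B cell survival factor) measured 41.3, 25.8 and 35.5 CPM in WT and 37.3, 27.8 and 25.9 CPM in KO, a log2 difference of -0.17 ± 0.23 (SE). Tnfsf12 (TWEAK, the ligand of Tnfrsf12a) had 16.2, 11.0 and 17.0 CPM in WT and 15.3, 13.1 and 8.99 CPM in KO, which overlap. Tnfsf15 (TL1A, the ligand of Tnfrsf25) had 6.98, 12.6 and 5.50 CPM in WT and 7.40, 6.35 and 7.76 CPM in KO. Its WT group spanned the whole KO range (-0.22 ± 0.34, SE). Eda (ectodysplasin, a signal in hair and gland development) stood at 8.87, 3.21 and 5 CPM in WT and 6.77, 3.84 and 2.45 CPM in KO. It was highest in WT replicate 1, the library with the squamous epithelium and skin markers, whose part in this value was not tested. The log2 difference was -0.39 ± 0.51 (SE), and 0.09 without that library. The remaining 2 ligands, Tnfsf8 and Tnfsf13, had log2 differences of 0.14 and -0.11. Tnfsf12 and Tnfsf13 share exon sequence with the read-through gene Tnfsfm13, and Tnfsf13 overlaps Tnfsf13os on the other strand. Tnfsfm13 is on the same strand and shares 731 of the 1515 exon bases of Tnfsf12 and a part of those of Tnfsf13. Reads within the same-strand stretches could belong to either gene, and strand use in counting was not stated for the opposite-strand one.

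Per exon length, as CPM per kilobase of exon (RPKM, mean of 6 libraries), the highest ligands were Ltb at 13.5 ± 4.97, Tnfsf10 at 10.2 ± 1.64, Tnfsf12 at 8.97 ± 2.08 and Tnf at 8.54 ± 5.55 (SD, n = 6). The ranges of these 4 over the libraries overlapped. The receptors reached higher levels on the same scale: Ltbr at 59.4 ± 3.68, Tnfrsf1a at 50.2 ± 2.5, Tnfrsf21 at 38.0 ± 1.91, Tnfrsf11a at 33.7 ± 4.48, Tnfrsf1b at 33.6 ± 5.67 and Tnfrsf12a at 18.8 ± 5.08 (SD, n = 6). Every library of Ltbr was above every library of Tnfrsf1a, and every library of Tnfrsf1a above those of Tnfrsf21, whose range overlapped those of Tnfrsf11a and Tnfrsf1b. The lowest of the 41 was Edar at 0.422.

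The 3 receptors with the highest levels per length also varied least of the 41. Ltbr and Tnfrsf1a are among the genes with so many counts per exon base (0.461 and 0.391) that their differences may be compressed, and Tnfrsf21 (0.296) is close, so their steadiness was not separated from that limit. Tnfrsf21 (death receptor 6) had a highest library 1.12 times its lowest, Tnfrsf1a 1.15 times and Ltbr 1.19 times. Tnfrsf1a, the broadly expressed TNF receptor with a death domain, measured 138, 132 and 127 CPM in WT and 129, 135 and 120 CPM in KO (log2 difference -0.05 ± 0.07, SE). Ltbr, the lymphotoxin beta receptor, measured 135, 148 and 141 CPM in WT and 126, 150 and 141 CPM in KO (-0.02 ± 0.08, SE). The groups overlapped for both genes. Tnfrsf21 stood at 166, 165 and 155 CPM in WT and 148, 154 and 148 CPM in KO, with the groups next to each other but apart (-0.11 ± 0.06, SE; edgeR adjusted p = 0.829).

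Tnfrsf1b, the second TNF receptor, carried mainly by immune cells and without a death domain, had 120, 114 and 114 CPM in WT and 112, 160 and 152 CPM in KO. KO replicates 2 and 3 were above the WT group and KO replicate 1 just below it (0.29 ± 0.14, SE; edgeR adjusted p = 0.829). The ratio of Tnfrsf1b to Tnfrsf1a per exon length was 0.591, 0.583 and 0.606 in WT and 0.590, 0.801 and 0.864 in KO, so the same pair of KO libraries stood out from the other 4.

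Fas, the death receptor of Fas ligand, measured 23.4, 22.1 and 19.4 CPM in WT and 19.3, 17.9 and 14.7 CPM in KO. Every KO library was below every WT library, KO replicate 1 by a narrow margin, with means of 21.6 ± 2.06 CPM (SD, n = 3) and 17.3 ± 2.34 CPM (SD, n = 3). The log2 difference was -0.32 ± 0.17 (SE; edgeR adjusted p = 0.829). Fasl itself had 7, 4 and 1 raw counts in WT and 2, 3 and 1 in KO, too few for a comparison.

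**Figure D2:**
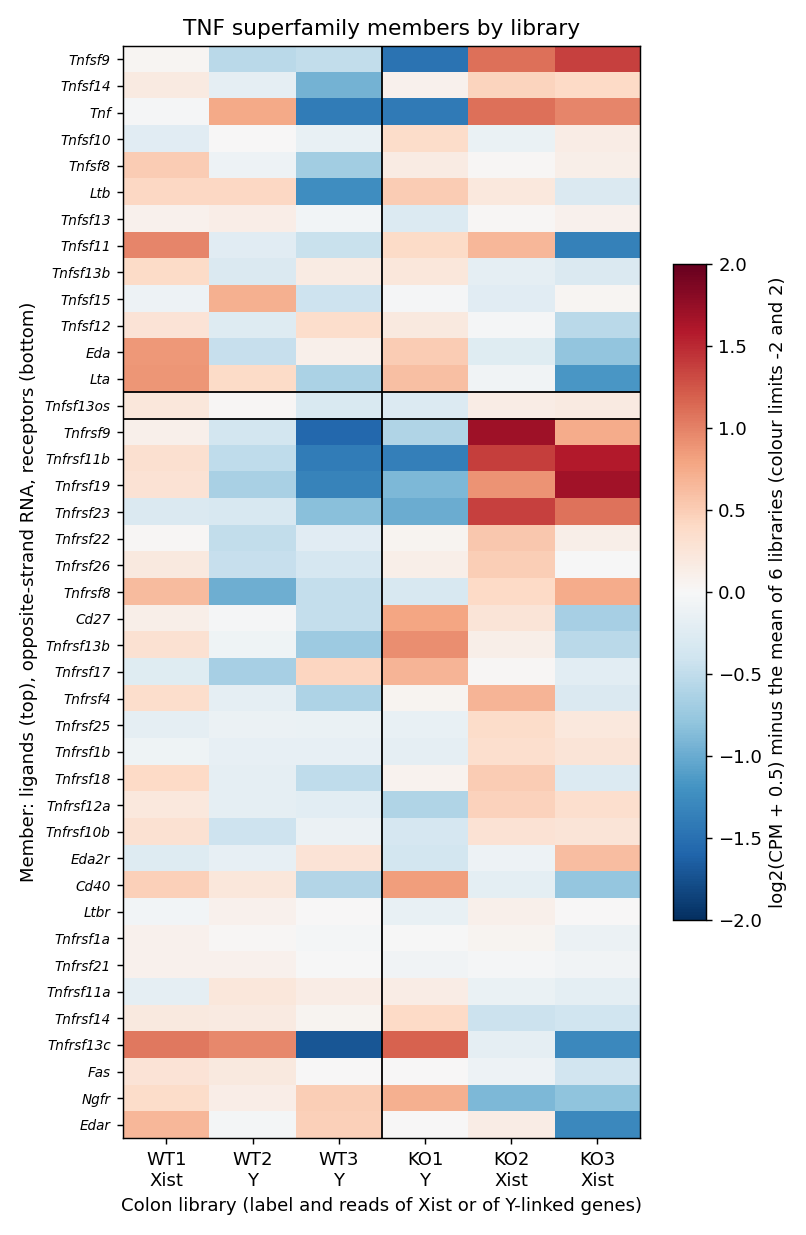
Colour map of the 41 genes (rows, ligands at the top, receptors at the bottom) in the 6 libraries (columns, with the kind of sex-linked reads), red above and blue below a gene's own mean of log2(CPM + 0.5). Tnfrsf11b (13.5 to 110 CPM) and Tnfrsf19 (14.9 to 123 CPM) are red in KO replicates 2 and 3, while Ltbr (126 to 150 CPM) is pale throughout.

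Tnfrsf11b encodes osteoprotegerin, the soluble decoy that binds RANKL (Tnfsf11) in place of its receptor RANK (Tnfrsf11a). Tnfrsf11b (ENSMUSG00000063727) had 45.4, 25.3 and 13.5 CPM in WT and 13.8, 95.2 and 110 CPM in KO. KO replicates 2 and 3 were far above all others, and KO replicate 1 was almost level with the lowest WT library. The means of 28.1 ± 16.1 CPM (SD, n = 3) and 72.9 ± 51.7 CPM (SD, n = 3) gave a log2 difference of 1.37 ± 0.79 (SE; edgeR adjusted p = 0.829). Tnfsf11 had 6.86, 2.67 and 2.25 CPM in WT and 4.34, 5.42 and 0.953 CPM in KO (-0.14 ± 0.70, SE). Tnfrsf11a measured 176, 234 and 222 CPM in WT and 221, 183 and 174 CPM in KO (-0.13 ± 0.14, SE). Both overlapped between groups. Per exon length, the decoy amounted to 0.548, 0.229 and 0.129 of the receptor in WT and to 0.132, 1.1 and 1.34 in KO. It thus exceeded the receptor only in KO replicates 2 and 3.

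Tnfrsf19 (TROY, which marks some intestinal stem cells) stood at 46.8, 24.3 and 14.9 CPM in WT and 20.3, 71.8 and 123 CPM in KO. The order of the libraries resembled that of Tnfrsf11b, with KO replicates 2 and 3 on top and WT replicate 1 next (1.32 ± 0.70, SE; edgeR adjusted p = 0.829).

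Tnfrsf22 and Tnfrsf23, mouse decoy receptors that can bind TRAIL but pass on no death signal, lie side by side with Tnfrsf26 on the minus strand of chromosome 7 (GRCm38, Tnfrsf22 143634806 to 143649661, Tnfrsf23 143665809 to 143685872). Their transcripts are 91% identical over 2174 aligned bases. The longest identical run in their coding sequences, 102 bases at coding positions 421 to 522 of Tnfrsf22 and 391 to 492 of Tnfrsf23, is printed because a read inside it cannot be given to either gene.
Tnfrsf22 and Tnfrsf23: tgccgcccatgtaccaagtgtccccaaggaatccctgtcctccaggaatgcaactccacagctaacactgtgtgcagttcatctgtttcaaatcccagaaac

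Tnfrsf23 had 8.28, 8.02 and 5.50 CPM in WT and 4.85, 27.0 and 22.1 CPM in KO, and the smallest p of the 41. KO replicate 1 was again the lowest library (1.30 ± 0.61, SE; edgeR adjusted p = 0.829). Tnfrsf22 had 8.99, 6.15 and 7.5 CPM in WT and 9.19, 13.1 and 9.67 CPM in KO. Its KO libraries all lay above WT, though KO replicate 1 and WT replicate 1 were nearly level (0.49 ± 0.24, SE; edgeR adjusted p = 0.829). Because the authors' counting could split shared reads either way, the reads of both genes were also summed, an alternative chosen after seeing the data. The sum was 17.3, 14.2 and 13.0 CPM in WT and 14, 40.1 and 31.7 CPM in KO, and there the groups overlapped. Its log2 difference was 0.95 ± 0.38 (SE; edgeR unadjusted p = 0.0476, adjusted p = 0.829). The sum cannot show whether Tnfrsf22 alone separates, because Tnfrsf23 is itself lowest in KO replicate 1. With the assignment of shared reads unknown, the separation of Tnfrsf22 stays uncertain.

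Of the BAFF receptors, Tnfrsf13c (BAFF-R, on mature B cells) had 19.9, 18.6 and 2.5 CPM in WT and 21.8, 8.20 and 3.54 CPM in KO. Tnfrsf13b (TACI) had 15.9, 12 and 7.5 CPM in WT and 24.6, 13.8 and 8.58 CPM in KO. Tnfrsf17 (BCMA, on plasma cells) had 3.19, 2.27 and 5.38 CPM in WT and 6.51, 3.97 and 3.27 CPM in KO. All 3 overlapped between groups, and the spread within each group exceeded the difference of the means (log2 differences of -0.28 ± 0.90, 0.41 ± 0.45 and 0.34 ± 0.42, SE). Cd40, the B cell and myeloid receptor of CD40 ligand, had 9.11, 7.62 and 4.13 CPM in WT and 11.9, 5.55 and 3.54 CPM in KO (0.01 ± 0.52, SE). For Tnfrsf13c and Cd40 the highest library was KO replicate 1, with WT replicates 1 and 2 next. Summed B cell markers were 327, 274 and 61.6 CPM in WT and 345, 151 and 63.6 CPM in KO, with 0 of 9 higher in the KO mean and none at 0. Their part in the values of Tnfrsf13c and Cd40 was not tested. In whole colon, fewer cells of a type and less RNA per cell cannot be told apart.

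Tnfrsf25 (death receptor 3, on T cells) had 4.97, 5.22 and 5.13 CPM in WT and 5.11, 7.54 and 6.67 CPM in KO. KO replicate 1 lay inside the narrow WT range, and the other KO libraries lay above it (0.33 ± 0.23, SE; edgeR adjusted p = 0.829). Tnfrsf12a (Fn14, a receptor linked with tissue repair) had 40.9, 31.0 and 30.3 CPM in WT and 23, 48.7 and 44.4 CPM in KO, and overlapped (0.18 ± 0.30, SE). Edar, the ectodysplasin receptor, had 2.48, 1.34 and 2.13 CPM in WT and 1.40, 1.59 and 0.272 CPM in KO, the most negative difference of the 41 at -0.85 ± 0.58 (SE; edgeR adjusted p = 0.83). It rests on 2 raw counts in KO replicate 3, and the highest library, as for Eda, was WT replicate 1. Eda2r had 10.5, 11.2 and 15.4 CPM in WT and 9.70, 11.8 and 19.6 CPM in KO (0.14 ± 0.32, SE). The other 8 receptors (Cd27, Ngfr, Tnfrsf4, Tnfrsf8, Tnfrsf10b, Tnfrsf14, Tnfrsf18 and Tnfrsf26) had log2 differences between -0.47 for Ngfr and 0.47 for Tnfrsf8 and Tnfrsf26.

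The members just above the count threshold were Tnfsf14 with a mean of 11.7 raw counts and Edar with 12.2. Just below it were Tnfsf18 with 3.5, Cd40lg and Fasl with 3 each, Tnfsf4 with 2.67 and Cd70 with 0.333. Cd40lg, the T cell ligand of Cd40, had 3, 3 and 1 counts in WT and 8, 1 and 2 in KO. Cd70, the ligand of Cd27, had 0 counts in all WT libraries, which allows up to 0.355 to 0.401 CPM (3 counts), and 2 counts in KO replicate 1. These limits cover counting error only. These 5 genes did not pass the low-count filter and were not tested in the main edgeR fit, so no comparison is made for them.

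Many of the larger differences went with the Xist and Y reads of the libraries. A higher KO mean itself makes this order likelier. KO replicates 2 and 3 hold Xist reads, and WT replicates 2 and 3 hold Y-linked reads. Summed neutrophil markers, given below, split the libraries the same way. For 11 of the 41 (26.8%), all 3 Xist libraries lay above all 3 Y libraries, against 8.29% of all tested genes. These were the ligands Tnfsf9 and Tnfsf14, the receptors Tnfrsf1b, Tnfrsf8, Tnfrsf9, Tnfrsf10b, Tnfrsf11b, Tnfrsf12a, Tnfrsf19 and Tnfrsf23, and Tnfsf13os. Tnfrsf11a alone showed the opposite order, where 7.72% of all genes did. With whether a library held Xist reads as a covariate, the edgeR log2 difference was 0.40 for Tnfrsf11b, 0.58 for Tnfrsf19 and 0.59 for Tnfrsf23. It was 0.19 for Tnfsf9, 0.84 for Tnfrsf9 and -0.17 for Tnf. That fit called 0 of the 41 and 0 of all 17195 genes. Compared within the Xist libraries, KO minus WT on the log2 scale was 1.09 for Tnf, 1.22 for Tnfsf9, 1.17 for Tnfrsf11b and 1.53 for Tnfrsf23, and within the Y libraries it was -1.13, -1.04, -0.42 and -0.43. Tnfrsf9 (1.15 and 0.42) and Tnfrsf19 (1.00 and 0.09) had 1 sign in both. Each of these values rests on 1 library in an arm: WT replicate 1 among the Xist libraries and KO replicate 1 among the Y libraries. WT replicate 1 is also the library with 547 CPM of squamous epithelium and skin markers. The part of that tissue in these values and in the covariate fit was not tested. The sign was opposite in both kinds of library for 27 of the 41 (65.9%), near the 64.8% of all genes. An edgeR interaction of genotype and Xist reads, added after seeing the data, has the same arms of 1 library and 2 residual degrees of freedom. It called 0 of 17195 genes (19.4% had an unadjusted p under 0.05, as had 11 of the 41), and nothing is read from it about whether the difference depends on Xist reads.

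**Figure D3:**
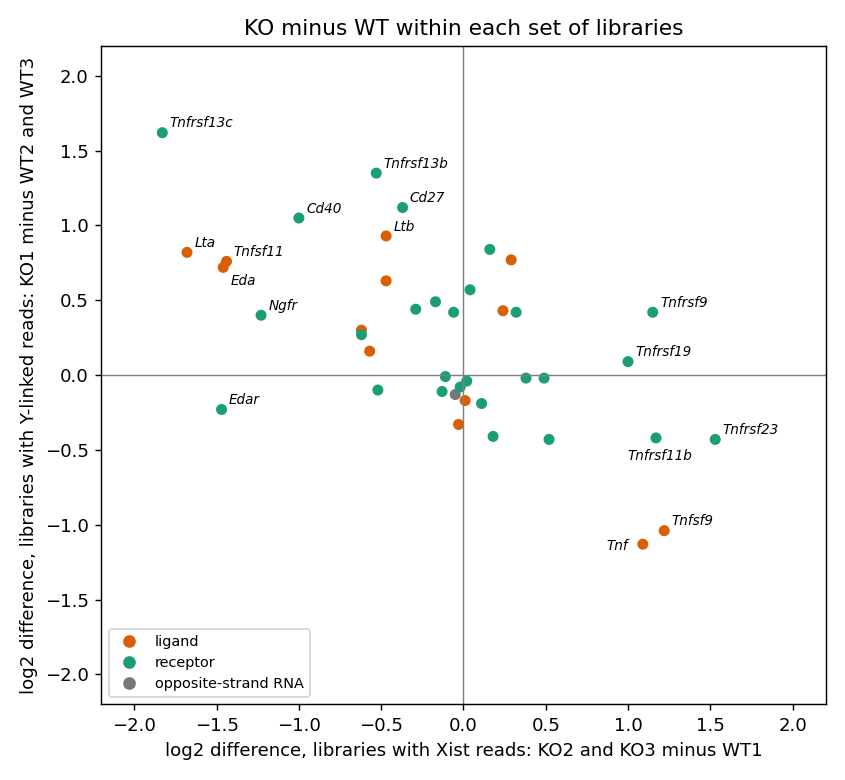
KO minus WT on the log2 CPM scale for each of the 41 genes, within the 3 libraries with Xist reads on the x axis and within the 3 with Y-linked reads on the y axis. Of the 41 points, 27 lie in the quadrants where the signs are opposite, among them Tnf at 1.09 and -1.13.

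Markers of other cells differed between the same libraries. Summed neutrophil markers stood at 47.0, 12.7 and 5.88 CPM in WT and 14.3, 81.1 and 94.6 CPM in KO, with all 5 tested genes higher in the KO mean and none of the 6 at 0 throughout. KO replicates 2 and 3 were the highest and WT replicate 1 next, the order also seen for Tnfsf9, Tnfrsf11b and Tnfrsf19. KO replicates 2 and 3 and WT replicate 1 are the Xist libraries, and all lay above the Y libraries in this sum. The marker sum and the Xist reads thus split the libraries alike, and their parts in the TNF family values cannot be told apart. Enteric neuron and glia markers summed to 247, 187 and 233 CPM in WT and 244, 147 and 120 CPM in KO, 7 of 8 lower in the KO mean. Ngfr, a neurotrophin receptor of glia and neurons, had 29.2, 24.6 and 31.8 CPM in WT and 37.0, 11.9 and 12.7 CPM in KO, low in the same pair of KO libraries. Summed T cell markers were 30.5 to 69.6 CPM in WT and 44.8 to 85.3 CPM in KO, 7 of 8 with a higher KO mean. None of these marker genes was called, and their part in the TNF family values was not tested.

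**Figure D4:**
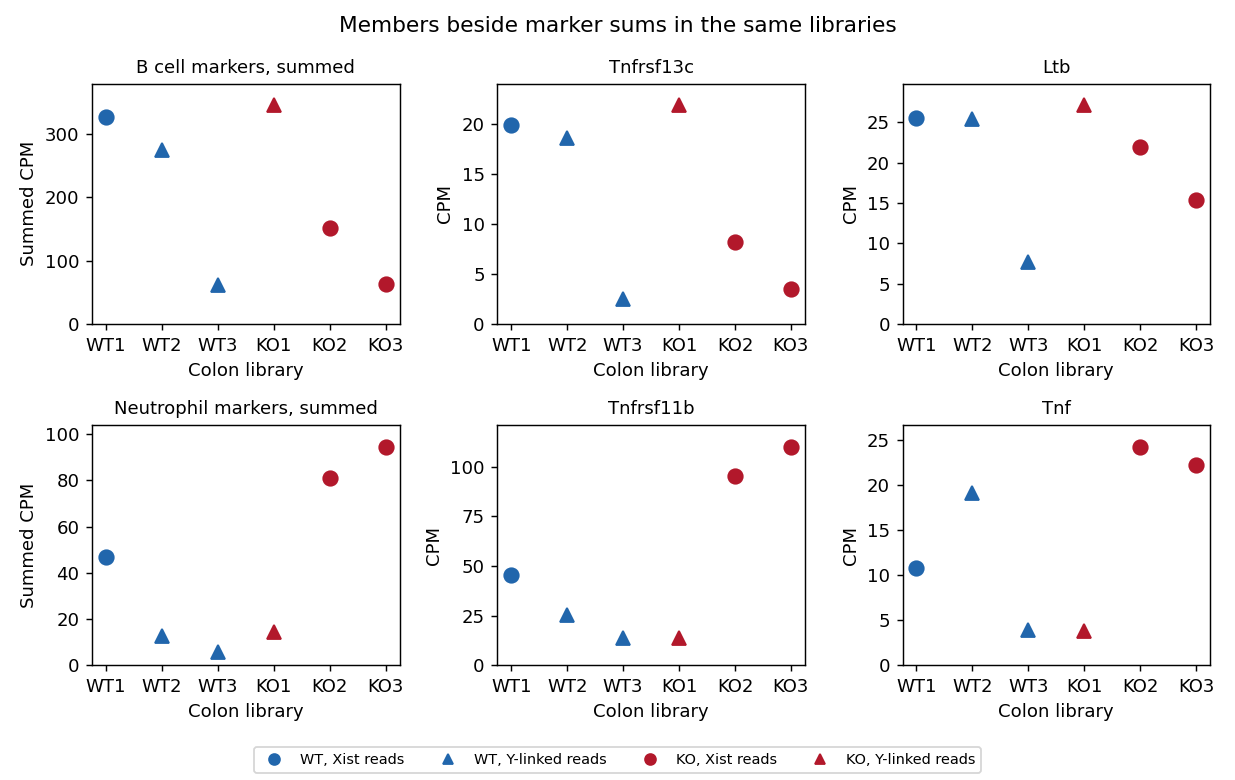
CPM of Tnfrsf13c, Ltb, Tnfrsf11b and Tnf beside the summed CPM of B cell and neutrophil markers in the same 6 libraries, on linear axes from 0, 1 point per library. KO replicates 2 and 3 are high for neutrophil markers (81.1 and 94.6 CPM) and for Tnfrsf11b (95.2 and 110 CPM). KO replicate 1 and WT replicates 1 and 2 are high for B cell markers (345, 327 and 274 CPM) and Tnfrsf13c (21.8, 19.9 and 18.6 CPM). Tnf is at 19.1 CPM in WT replicate 2, where neutrophil markers are at 12.7 CPM.

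The highest library was KO replicate 2 for 12 of the 41 genes and WT replicate 1 for 11, and the lowest was WT replicate 3 for 12 and KO replicate 3 for 10. WT replicate 3 was the highest for 1. Over all tested genes KO replicate 2 was the highest for 16.8%, WT replicate 1 for 18.3% and WT replicate 3 for 12.4%, while WT replicate 3 was the lowest for 13.8% and KO replicate 3 for 23.9%, close to 10 of the 41.

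The signalling machinery under the receptors varied less between libraries than the ligands and receptors, at levels that were not matched. Counts per exon base were not examined for these genes, so their differences may be compressed as those of Ltbr and Tnfrsf1a may be. The list held 50 adaptors, kinases, NF-kB subunits, inhibitors and induced genes, and all 50 were tested. EdgeR called 0 in either direction (smallest adjusted p = 0.829), and DESeq2 called 0 (smallest adjusted p = 0.794). At an unadjusted p under 0.05 there were 2 higher and 2 lower, 8% of the list against 5.06% of all genes. The mean was higher in KO for 20 and lower for 30, the median log2 difference was -0.03, and the highest library was a median of 1.21 times the lowest. Groups did not overlap for 7 (14%), 3 with KO above and 4 with KO below, against the 9.58% of all genes.

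Ikbkb, the kinase that releases NF-kB from its inhibitor, had 136, 133 and 135 CPM in WT and 146, 154 and 154 CPM in KO. Every KO library lay above WT, by 0.17 ± 0.05 on the log2 scale (SE; edgeR adjusted p = 0.829). Xiap, a caspase inhibitor, also lay apart, with 148, 160 and 157 CPM in WT and 174, 173 and 172 CPM in KO (0.16 ± 0.06, SE; edgeR adjusted p = 0.829). Tnfaip3 (A20), an NF-kB target that shuts the pathway down, had 150, 236 and 180 CPM in WT and 151, 132 and 115 CPM in KO. KO replicate 1 matched the lowest WT library and the others were below it (-0.51 ± 0.19, SE; edgeR adjusted p = 0.829). Daxx, a Fas-binding adaptor, had 85.3, 82.3 and 76.3 CPM in WT and 71.2, 73.3 and 71.8 CPM in KO, with no overlap (-0.17 ± 0.07, SE; edgeR adjusted p = 0.829). Rnf31, the catalytic subunit of the linear ubiquitin ligase, had 95.5, 91.3 and 96.3 CPM in WT and 91.4, 82.8 and 67.3 CPM in KO (-0.23 ± 0.12, SE; edgeR adjusted p = 0.829). There KO replicate 1 lay just inside the WT range and the other KO libraries below it.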

How the data were processed

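RNA sequencing of 12 samples gave 1 table of read counts per Ensembl gene each, and the deposited values are whole-number counts with no normalisation, per the file headers. STAR, TopHat2, RSEM, HTSeq and DESeq2 and the builds mm10 and GRCm38 are named in the submitters' processing notes, without versions or roles. Filters, duplicate removal and strand use were not stated. The highest count per exon base was 0.919 to 0.973 in the colon libraries, so folds of genes above 0.3 counts per exon base may be compressed. Among the 41 these were Ltbr and Tnfrsf1a, and the signalling genes were not checked for this. Groups came from the sample titles, and the 2 materials had different library preparations.

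The 6 colon libraries were fitted with the robust quasi-likelihood model of edgeR 4.0.16 in R 4.3.3, after TMM scaling and the filterByExpr filter, over 17195 genes, with Benjamini-Hochberg adjustment and a threshold of 0.05. A fold is the fitted log2 ratio of KO to WT with its standard error. The procedure was tested on simulated data. Exon lengths and positions came from GENCODE vM21 (30212 of 30263 IDs matched) and promoter windows from RefSeq (GRCm38.p6). A library counted as holding Xist reads above 100 CPM. Of the 357 genes in the CD8 tables, 352 passed the filter and 0 were TNF family members.

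The members and lists were chosen with earlier results of these data known. Values per library are given for the 12 genes with the smallest edgeR p, the 4 ligands and 6 receptors with the highest RPKM, and chosen ligand and receptor pairs, and for the 5 signalling genes with the smallest p. Ngfr was given for its marker comparison after its values were seen. Alternatives were other scalings, filters and tools (DESeq2 1.42.0, limma 3.58.1), a replicate block, an Xist covariate, each replicate left out, and a minimum mean of 50 counts.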

Additional observations from a re-analysis of the deposited data

How the results depend on the processing

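Under every alternative run in colon, 0 of the TNF family genes and 0 of the signalling genes passed the threshold. These zeros are not particular to the 2 lists. With other scalings, filters, the block, the covariate, each replicate left out and limma-voom, 0 of all genes tested passed. DESeq2 called 14 of 21975. Without KO replicate 1, the only Y library in KO, some TNF family genes came near the threshold. There edgeR gave an adjusted p of 0.0837 for Tnfrsf23 and for Tnfrsf1b, and of 0.0845 for Tnfsf9. In that fit 3673 of 17539 genes had an unadjusted p under 0.05, against 870 of 17195 in the main fit. The median log2 difference of the TNF family genes was 0.40 in limma-voom with quality weights, 0.02 with the Xist covariate and 0.01 to 0.33 with each replicate left out. The number with a higher KO mean was 16 both when all genes needed a mean of 50 counts and when only the members did (fewer genes tested), and 21 to 29 with each replicate left out. Of 483 alternative values for 35 named genes, 454 kept their direction, 29 reversed, and 21 genes never reversed. None of these genes passed the threshold in the main fit or in any alternative, so the count measures direction only. The reversed values were 0.0061 for Ltbr with total counts as the only scaling, and -0.17 for Tnf and -0.11 for Tnfrsf12a with the Xist covariate. In limma-voom they were -0.10 for Cd40, -0.03 for Eda2r, 0.04 for Ltbr, 0.08 for Tnfrsf13c, 0.02 for Tnfrsf1a and 0.50 for Tnfsf11. The cause was not tested.

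With each replicate left out, values ran from -0.61 to 0.33 for Cd40, -0.86 to 0.09 for Eda, -0.20 to 0.35 for Eda2r, -1.10 to 0.03 for Lta, -0.24 to 0.38 for Ltb and -0.08 to 0.04 for Ltbr. They ran from -0.02 to 0.45 for Tnfrsf12a, -0.08 to 0.71 for Tnfrsf13b, -1.22 to 0.14 for Tnfrsf13c, -0.0033 to 0.75 for Tnfrsf17, -0.09 to 0.0029 for Tnfrsf1a, -0.57 to 0.55 for Tnfsf11 and -0.43 to 0.20 for Tnfsf15. Among genes that kept their sign, the larger differences ran from 0.18 (without WT replicate 3) to 1.19 (without WT replicate 2) for Tnf, 0.77 (without KO replicate 2) to 1.98 (without WT replicate 1) for Tnfrsf9 and 0.69 (without KO replicate 3) to 1.88 (without WT replicate 1) for Tnfrsf19. They ran from 0.96 to 1.93 for Tnfrsf11b and 0.89 to 1.75 (without KO replicate 1) for Tnfrsf23. For Tnfsf9 they ran from 0.69 (without KO replicate 3) to 1.64 (without KO replicate 1). For Tnfsf14 they ran from 0.41 (without WT replicate 3) to 1.16 (without WT replicate 1), and for Edar from -1.22 to -0.40 (without KO replicate 3).

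Same-numbered WT and KO replicates had correlations of deviations of -0.039, 0.214 and -0.233, and 2 of 6 libraries correlated best with their own number, so the numbers were not taken as pairs. With the replicate number as a block, 0 members and 0 signalling genes passed, and 0 of all 17195 genes did. In that fit the median was 0.15, 24 members had a higher KO mean and Cd40 stood at -0.09. The alternatives for the CD8 tables gave no value, since no member is listed there.

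With 3 libraries a group and a total of 7304082 to 8652561 counts, ligands and receptors of few counts, such as Tnfsf14, Lta and Edar, carry standard errors of 0.45, 0.69 and 0.58 on the log2 scale.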
